A study of Homo sapiens with 12 samples.

Results

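The BMP response of MIB1 WT cells was read from 6 of the 12 RNA-seq libraries, chosen by their labels as the libraries without doxycycline (Dox) that received BMP4 for 24 h either with the BMP receptor inhibitor LDN (BMP-off) or with its solvent DMSO (BMP-on). There were 3 replicates per group. The cells were MIB1-iKO cells, a clone grown from a single cell of the human lung cancer line NCIH838 that carries Dox-inducible Cas9 and a guide RNA. Without Dox, Cas9 is not induced and *MIB1* is intact, although the cells carry the same construct as the knockout cells. Cells of both groups were first held for 3 days in 50 nmol/L LDN, then replated and given 10 ng/mL BMP4. Since BMP4 was present in both groups, the comparison measures release from LDN in the presence of BMP4, not the addition of BMP4. The labels do not say whether the replicates were separate cultures, so the p-values measure the spread between these libraries, which may be technical.

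BMP ligands bind a complex of type I and type II receptor kinases. The activated type I receptor phosphorylates SMAD1, SMAD5 and SMAD9, which join SMAD4, enter the nucleus and bind GC-rich and GTCT-containing DNA. Direct targets include the ID genes, which encode inhibitors of basic helix-loop-helix factors, and several brakes on the pathway itself, namely the inhibitory SMAD6 and SMAD7, the decoy receptor BAMBI and the secreted antagonist noggin. In epithelial and cancer cells, BMP signaling is known for its effects on growth arrest and differentiation. LDN-193189 blocks the kinase activity of the type I receptors.

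The WT libraries held between 22123152 and 29498000 counts on genes. In a principal component analysis of the 6 libraries, the first component took 33.0% of the variance and separated BMP-off from BMP-on, and the second took 21.1%. Within groups, the deviation of a gene from its group mean correlated with its GC content, with a Spearman rho across genes of −0.425 in BMP-off replicate 1, 0.396 in BMP-off replicate 3 and between −0.155 and 0.132 in the other 4 libraries. Epithelial markers summed to between 404 and 413 CPM (counts scaled to a common library total with TMM factors) in BMP-off and between 442 and 468 CPM in BMP-on, with *KRT18* and *KRT8* high and *KRT19* at or near 0. Of 10 immune markers, 4 (*PTPRC*, *CD3D*, *MS4A1* and *CD68*) had 0 counts in all 6 libraries, and the 10 summed to between 5.82 and 8.41 CPM. Fibroblast and smooth muscle markers summed to between 23.8 and 32.1 CPM in BMP-off and between 38.7 and 42.0 CPM in BMP-on, of which *COL1A1* gave 13.3 to 19.6 CPM and 27.6 to 30.0 CPM. *DCN*, *PDGFRA* and *FAP* stayed under 1 CPM in every library. *MIB1* itself had 175, 144 and 153 CPM in BMP-off and 158, 175 and 153 CPM in BMP-on, and these ranges overlapped (log2 fold change 0.04 ± 0.07 (SE), adjusted p = 0.838).

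Release from LDN changed few genes by a large factor and many by a small one. Of 17188 genes tested, 60 were at least 2-fold higher with BMP-on once the adjusted p had to be 0.05 or less (0.349%), and 13 were at least 2-fold lower (0.0756%). At the adjusted p alone, 328 genes were higher (1.91%) and 346 lower (2.01%). Among genes past the adjusted p, the rises were larger than the falls. The median absolute log2 fold change was 0.50 among the higher genes and 0.30 among the lower ones. Of the lower genes, 87.0% changed by less than 1.5-fold, against 57.6% of the higher ones. The higher genes were also less expressed, with a median level of 23.3 CPM against 54.6 CPM. The part of expression level in this gap was not tested. The groups did not overlap for any of the 73 genes past both thresholds, whereas over all genes tested 1931 had every BMP-on library above every BMP-off library and 2186 the reverse. Many of these 73 genes were weakly expressed. Of the 60 higher genes, 37 had a mean under 5 CPM even with BMP-on and 13 reached 20 CPM. Together, the 60 genes gained 528 CPM, from 336 CPM to 865 CPM. Adding a GC correction kept 321 of the 328 higher genes and all 346 lower genes, and raised the totals to 673 and 845. Leaving out BMP-off replicate 1, 2 or 3 or BMP-on replicate 1, 2 or 3 gave 344, 207, 245, 201, 220 and 235 higher genes. In the same order, there were 233, 213, 230, 165, 205 and 170 lower genes.

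**Figure D1:**
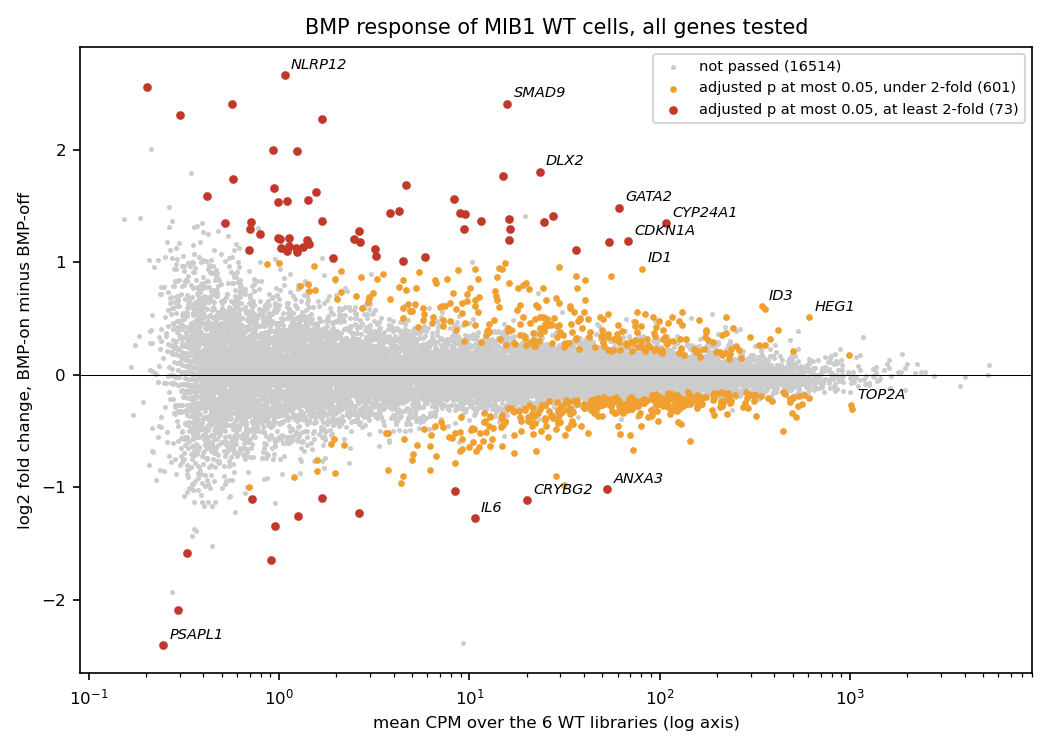
Each point is 1 of 17188 genes tested, placed by its mean CPM over the 6 WT libraries (x axis, log scale) and its log2 fold change, BMP-on minus BMP-off (y axis). Grey points did not pass an adjusted p of 0.05, orange points passed it with less than a 2-fold change and red points passed it with at least a 2-fold change. Red points lie mostly at low levels and mostly above 0, while lower genes past the test form a dense band of small changes at high levels.

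BMP target genes rose as a group. Of 15 targets tested, 11 passed as higher and 0 as lower, against 1.91% and 2.01% of all genes, and the median log2 fold change of the 15 was 1.11 against 0.0016 for all genes. The count was 10 or 11 under every alternative and with any WT library left out. The largest change belonged to *SMAD9*, which encodes a receptor-regulated SMAD of the BMP branch. It had 4.81, 5.52 and 4.73 CPM in BMP-off and 28.6, 25.4 and 26.0 CPM in BMP-on. The groups were far apart, and the fitted rise was 5.31-fold (log2 fold change 2.41 ± 0.08 (SE), adjusted p = 3.76e-11). By contrast, *SMAD1* (24.0 ± 1.01 against 22.8 ± 0.548 CPM, mean ± SD, n = 3) and *SMAD5* (105 ± 4.74 against 101 ± 0.826 CPM), which encode its partners in the pathway, and *SMAD4*, which encodes the common partner (89.0 ± 4.42 against 84.5 ± 2.68 CPM), did not pass the test (adjusted p = 0.670, 0.641 and 0.570).

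Genes that encode direct inhibitors of the pathway rose with BMP-on. *SMAD6* had 5.17, 4.04 and 5.27 CPM in BMP-off and 14.5, 11.7 and 13.1 CPM in BMP-on (log2 fold change 1.44 ± 0.11, adjusted p = 8.19e-07). *SMAD7* went from 21.8, 22.7 and 24.3 CPM to 55.3, 47.5 and 45.8 CPM (1.11 ± 0.09, adjusted p = 4.32e-06). *BAMBI* went from 14.5, 13.8 and 13.0 CPM to 40.3, 32.1 and 33.5 CPM (1.35 ± 0.09, adjusted p = 7.17e-08). In each of the 3 genes BMP-on replicate 1 was the highest library, and the groups stayed apart. *NOG*, which encodes noggin, went from 2.48, 2.26 and 2.04 CPM to 7.08, 5.43 and 6.24 CPM (1.45 ± 0.14, adjusted p = 7.30e-06). No other secreted antagonist passed the test. The 10 members of that list that did not pass had log2 fold changes between −0.15 and 0.92, the latter for *CHRD* at under 1 CPM. With the GC correction, 2 of these 10 passed as lower, beside 845 of all genes tested.

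The ID genes rose by unequal factors. *ID2* had 8.87, 9.77 and 9.72 CPM in BMP-off and 27.1, 19.96 and 22.5 CPM in BMP-on (log2 fold change 1.29 ± 0.11, adjusted p = 2.25e-06). *ID1* had 48.6, 56.5 and 59.8 CPM against 107, 101 and 109 CPM (0.94 ± 0.11, adjusted p = 0.000273). *ID3* had 235, 284 and 299 CPM against 403, 424 and 418 CPM (0.61 ± 0.14, adjusted p = 0.0371). *ID3* was the most abundant of these in BMP-off, at 228 RPKM against 46.7 for *ID1* and 4.62 for *ID2*, on the scale that corrects for gene length. In BMP-off, replicate 1 was the lowest library for all 3 genes. *ID3* also gained 142 CPM, the 3rd largest gain among the genes past the test, although its fold was the smallest of the 3. The call of *ID3* was not robust. When low counts were not filtered its adjusted p was 0.112, and it was between 0.0510 and 0.114 when any 1 of the 6 WT libraries was left out. Further targets that rose were *HEY1*, a Notch and BMP target that encodes a transcriptional repressor (4.99, 4.78 and 5.63 CPM to 15.1, 13.3 and 13.0 CPM, 1.43 ± 0.09, adjusted p = 1.13e-07), *MSX2* (0.94 ± 0.09, adjusted p = 5.01e-06) and *ATOH8* (1.27 ± 0.20, adjusted p = 0.00120). Among the targets that did not pass, *HEY2*, *MSX1* and *TNFRSF11B* had log2 fold changes of 0.65, 0.43 and 0.36 and at most 3.62 CPM in any library.

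**Figure D2:**
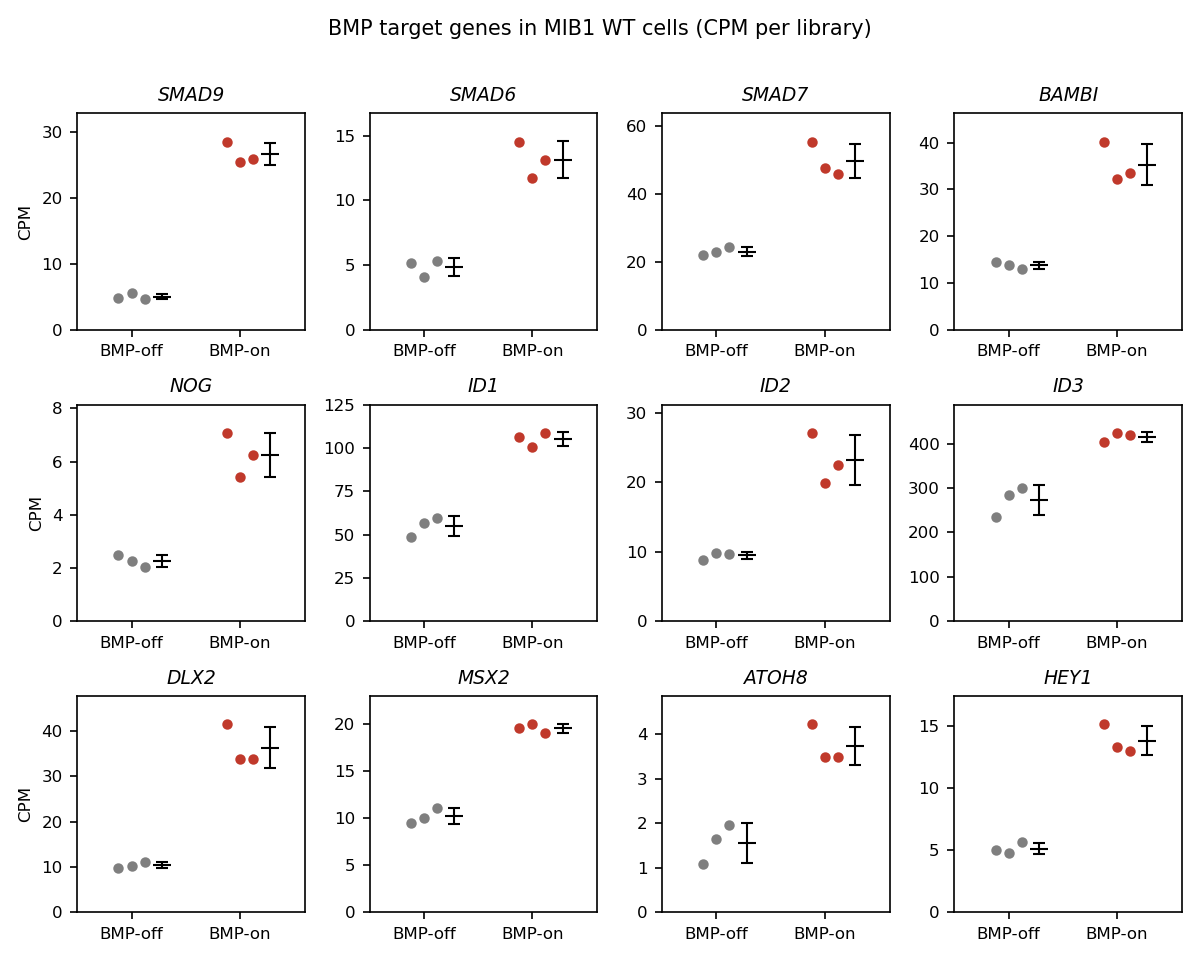
CPM (y axis, from 0) of 12 genes in the BMP-off (grey) and BMP-on (red) libraries of MIB1 WT cells, with 1 point per library and, beside them, the mean and SD of 3. The 2 groups are apart in every panel, widest for SMAD9, with 4.73 to 5.52 CPM against 25.4 to 28.6 CPM.

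The sequence before the start of 4 of these genes is shown as examples, 3 for inhibitors of the pathway that rose and 1, *ID1*, for the ID genes, chosen after their values were seen. The sequences are the 250 bases before the RefSeq start (GRCh38.p14), 5′ to 3′ on the strand of the gene. Capitals mark matches on either strand to the GC-rich palindrome GGCGCC, to the related GC-rich site GGAGCC, or to GTCT, which is the core of the SMAD binding element.
*SMAD6*, chr15:66701986-66702235, plus strand: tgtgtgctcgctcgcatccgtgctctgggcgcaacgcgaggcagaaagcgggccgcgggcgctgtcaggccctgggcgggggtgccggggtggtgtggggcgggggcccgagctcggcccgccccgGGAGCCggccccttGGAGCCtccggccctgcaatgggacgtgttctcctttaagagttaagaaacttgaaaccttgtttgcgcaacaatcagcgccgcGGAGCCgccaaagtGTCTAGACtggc
*SMAD7*, chr18:48950966-48951215, minus strand: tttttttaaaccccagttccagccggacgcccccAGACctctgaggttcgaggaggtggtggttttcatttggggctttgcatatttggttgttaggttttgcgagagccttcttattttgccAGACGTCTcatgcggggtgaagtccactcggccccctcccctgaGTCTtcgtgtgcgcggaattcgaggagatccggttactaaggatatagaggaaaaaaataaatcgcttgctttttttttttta
*BAMBI*, chr10:28677271-28677520, plus strand: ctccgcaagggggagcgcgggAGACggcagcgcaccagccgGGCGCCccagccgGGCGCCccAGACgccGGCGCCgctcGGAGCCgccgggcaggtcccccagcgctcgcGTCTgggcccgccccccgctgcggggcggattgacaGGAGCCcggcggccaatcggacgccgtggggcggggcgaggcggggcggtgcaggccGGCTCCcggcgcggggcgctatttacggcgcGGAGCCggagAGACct
*ID1*, chr20:31605039-31605288, plus strand: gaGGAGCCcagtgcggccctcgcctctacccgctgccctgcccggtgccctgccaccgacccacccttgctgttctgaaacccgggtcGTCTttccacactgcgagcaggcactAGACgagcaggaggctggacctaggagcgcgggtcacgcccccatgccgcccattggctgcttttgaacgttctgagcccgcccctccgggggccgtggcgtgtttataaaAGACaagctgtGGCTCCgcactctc

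These windows differed in their makeup. The window of *SMAD6* held 3 copies of GGAGCC and, near its end, GTCTAGAC, a palindrome made of a pair of GTCT cores, whose first base lay 12 bases before the start. Only 15 of the 11133 matched promoters (0.135%) held that palindrome, which was searched after the window had been seen, and *SMAD6* was the only 1 of the 15 that was higher at an adjusted p of 0.05. The window of *BAMBI* was 81.2% GC and held GGCGCC 3 times, GGAGCC 4 times and GTCT 4 times. That of *SMAD7* was 48.0% GC and held GTCT 4 times with neither GC-rich motif. *ID1* had GGAGCC 2 times and GTCT 3 times. Among the 250 higher genes with a promoter in the table, 37.6% held GGCGCC and 47.2% GGAGCC, against 26.0% and 39.0% of all genes tested and 24.2% and 41.1% of the lower genes. Among the 42 genes at least 2-fold higher with a promoter, the shares were 23.8% and 52.4%, and of the 9 higher BMP targets with a promoter, 1 held GGCGCC and 6 held GGAGCC, so GGCGCC was not more frequent in either of these sets than in all genes. The GC content of these windows averaged 67.6% for higher genes, 64.3% for all genes and 64.2% for lower genes, and its part in the motif shares was not tested. GTCT stood in 71.6%, 75.0% and 71.3% of the windows of higher, all and lower genes. These are descriptions of letters, not of binding.

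Most receptors and signal transducers were at similar levels in both groups. Of 14 receptors and co-receptors tested, *BMPR2*, the type II receptor of BMPs, was higher with 203, 210 and 186 CPM against 169, 140 and 145 CPM (log2 fold change 0.40 ± 0.08, adjusted p = 0.00661). On the RPKM scales its adjusted p was 0.0507 and 0.0509. *TGFBR3*, or betaglycan, a co-receptor that presents TGF-β2 and inhibin, was lower, with 440, 471 and 445 CPM against 620, 551 and 592 CPM (−0.38 ± 0.05, adjusted p = 0.000106). Neither range overlapped. The type I receptor genes *BMPR1A* (17.5 ± 1.72 against 19.8 ± 1.69 CPM) and *ACVR1* (49.8 ± 2.61 against 55.4 ± 2.77 CPM) had overlapping groups and did not pass (adjusted p = 0.361 and 0.212). With a GC correction, *ACVR1* passed the test (log2 fold change 0.18, adjusted p = 0.0227). Of 14 ligand genes tested, only *TGFB2* passed, and it was lower in all BMP-on libraries (2.66, 3.08 and 3.09 CPM against 5.67, 5.78 and 5.82 CPM, −0.96 ± 0.11, adjusted p = 8.60e-05). With the GC correction, 1 ligand gene was higher and 2 were lower, beside 673 and 845 of all genes tested. Among 24 SMADs and SMAD regulators, 5 were higher and 1 lower, against 1.91% and 2.01% of all genes. Beside *SMAD9*, *SMAD6* and *SMAD7*, these were the corepressors *SKI* (105 ± 1.42 against 81.3 ± 4.32 CPM, 0.37 ± 0.06, adjusted p = 0.000848) and *SKIL* (252 ± 5.02 against 195 ± 14.1 CPM, 0.37 ± 0.06, adjusted p = 0.00126), and the phosphatase gene *CTDSPL*, which was lower (59.7 ± 2.40 against 74.3 ± 0.796 CPM, −0.31 ± 0.05, adjusted p = 0.00131). The other 18 lay between −0.17 and 0.14.

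Several transcription factor genes rose with the targets. *DLX2*, a homeobox gene of craniofacial and forebrain development, had 9.84, 10.3 and 11.1 CPM in BMP-off and 41.5, 33.8 and 33.8 CPM in BMP-on (log2 fold change 1.80 ± 0.11, adjusted p = 7.17e-08). All 6 DLX and MSX genes tested had a positive log2 fold change, and 3 (*DLX2*, *MSX2* and *DLX1*) passed the test. Over all 17188 genes tested, 8687 had a positive value, 1.91% passed as higher and 2.01% as lower, beside which the counts of this paragraph are read. *DLX1*, the neighbor of *DLX2*, rose less, from 24.8 ± 1.16 to 33.3 ± 1.53 CPM (0.43 ± 0.07, adjusted p = 0.00126). *GATA2*, known for its role in blood stem cells and trophoblast, had 31.1, 31.4 and 34.4 CPM in BMP-off and 103, 82.4 and 85.7 CPM in BMP-on (1.48 ± 0.11, adjusted p = 7.04e-06). BMP-on replicate 1 was again the highest library. *GATA2-AS1*, which overlaps *GATA2* on the other strand, rose by a similar factor (4.20 ± 0.494 to 12.3 ± 0.912 CPM, 1.56 ± 0.11, adjusted p = 2.33e-07). The sources do not settle whether strand was used in counting, so reads of these overlapping genes could not be told apart. *HES1*, a repressor downstream of Notch, went from 9.86 ± 0.428 to 18.0 ± 1.49 CPM (0.87 ± 0.08, adjusted p = 7.30e-06). *HES1* and *HEY1* were the only 2 of 13 Notch targets that were higher, while *DTX4* was lower (−0.42 ± 0.09, adjusted p = 0.00861). Of 13 KLF factors, *KLF4* (0.64 ± 0.08, adjusted p = 8.60e-05), *KLF13* (0.47 ± 0.05, adjusted p = 2.83e-05) and *KLF10* (0.35 ± 0.08, adjusted p = 0.0147) were higher, and *KLF6* (−0.32 ± 0.05, adjusted p = 0.00131) was among 2 that were lower. Without BMP-off replicate 2 or BMP-on replicate 1, the adjusted p of *KLF10* was 0.0848 and 0.104, and without BMP-off replicate 3 or BMP-on replicate 3 that of *DTX4* was 0.0508 and 0.0538.

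Other genes with large rises encode enzymes, receptors and signaling regulators. *CYP24A1*, the enzyme that inactivates vitamin D, had the largest rise in level of the genes past both thresholds, with 63.0, 61.5 and 58.6 CPM against 163, 157 and 145 CPM (log2 fold change 1.34 ± 0.05, adjusted p = 1.80e-10). It was the only 1 of 7 vitamin D genes tested that passed. With the GC correction, 2 of the 7 were higher and 1 was lower, beside 673 and 845 of all genes tested. *ACTC1*, the cardiac alpha-actin gene, had 15.3, 14.7 and 15.2 CPM against 42.1, 39.1 and 38.8 CPM (1.41 ± 0.07, adjusted p = 7.91e-09). *DIO2*, which activates thyroid hormone and was named after its values were seen, had 37.1, 30.4 and 31.8 CPM against 77.9, 71.4 and 76.0 CPM (1.18 ± 0.07, adjusted p = 4.41e-08). The 3 genes had groups that were far apart relative to the spread within each. *FGFR3*, a fibroblast growth factor receptor that restrains bone growth, rose from 6.41 ± 0.672 to 16.5 ± 1.49 CPM (1.37 ± 0.11, adjusted p = 1.76e-06). *SOCS2*, a feedback inhibitor of cytokine receptors, had 20.5, 20.5 and 19.1 CPM against 40.0, 38.3 and 38.5 CPM (0.96 ± 0.06, adjusted p = 3.45e-08) and was the only 1 of 7 SOCS genes tested that passed. *DUSP2*, a phosphatase of MAP kinases, had 6.21, 6.52 and 7.72 CPM against 29.6, 18.6 and 21.4 CPM, with a wide spread in BMP-on (1.77 ± 0.20, adjusted p = 0.000601), and the related *DUSP1* rose less (0.42 ± 0.05, adjusted p = 0.000104). *DUSP2* was the only higher gene of 16 ERK feedback genes tested, a list that did not hold *DUSP1*. Of these 16 genes, 1 was lower and 14 did not pass, with a list median of 0.07. The list counts without the GC correction stand beside 1.91% of all genes higher and 2.01% lower. Also among the 20 largest rises at a mean of at least 50 counts were *ADGRF4* (1.68), *SAMD11* (1.38), *CARMIL2* (1.29), *KANK4* (1.20) and *LRRC15* (1.20), as log2 fold changes, with adjusted p-values from 1.76e-06 to 0.00392. *SAMD11* had a wide spread in BMP-off (6.71, 8.82 and 11.4 CPM, against 22.3, 22.6 and 24.6 CPM in BMP-on), and its log2 fold change was 1.19 with the GC correction. *NLRP12*, named after its values were seen, had the largest log2 fold change of all genes past the test (2.66 ± 0.23, adjusted p = 2.25e-06), at 0.251, 0.347 and 0.273 CPM against 1.94, 1.64 and 1.97 CPM.

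Among regulators of the cell cycle, 2 of 6 CDK inhibitor genes tested were higher and 1 was lower, against 1.91% and 2.01% of all genes. *CDKN1A*, which encodes the CDK inhibitor p21, rose from 38.4, 43.2 and 43.2 CPM to 105, 88.5 and 90.0 CPM (log2 fold change 1.18 ± 0.07, adjusted p = 7.17e-08), and *CDKN2C*, which encodes p18, rose from 51.4 ± 2.50 to 69.7 ± 3.11 CPM (0.44 ± 0.06, adjusted p = 0.000211). *CDKN3*, a phosphatase expressed with mitotic genes, was lower (−0.22 ± 0.05, adjusted p = 0.0273). The other 3 CDK inhibitors tested lay between −0.26 and 0.02. Of 23 p53 targets tested, 2 besides *CDKN1A* were higher, *ZMAT3* (0.67 ± 0.07, adjusted p = 5.12e-05) and *TP53INP1* (0.42 ± 0.11, adjusted p = 0.0464), whereas *DDB2* fell (−0.40 ± 0.07, adjusted p = 0.00290). The calls of *CDKN3* and *TP53INP1* were lost when any 1 of the 6 WT libraries was left out, with adjusted p-values from 0.0671 to 0.153 for *CDKN3* and from 0.0668 to 0.173 for *TP53INP1*.

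Many cell cycle genes were slightly lower with BMP-on. Of 43 S phase genes, 11 were lower and 0 higher, and of 54 G2/M genes, 20 were lower and 0 higher, against 2.01% and 1.91% of all genes. Their median log2 fold changes were −0.14 and −0.17, against 0.0016 for all genes, and 40 and 50 members had a negative value. The largest fall in either list was that of *CDC25C*, the phosphatase that activates *CDK1*, from 33.0, 33.3 and 32.5 CPM to 26.0, 25.6 and 27.5 CPM (−0.32 ± 0.06, adjusted p = 0.00341). *AURKA*, a mitotic kinase, had 434, 418 and 417 CPM against 360, 356 and 360 CPM (−0.24 ± 0.04, adjusted p = 0.000990). The difference was small, but it was several times the spread between replicates. *TOP2A*, the topoisomerase of dividing cells, had 1204, 1067 and 1069 CPM against 910, 936 and 917 CPM (−0.27 ± 0.05, adjusted p = 0.00428), and *STMN1*, a regulator of microtubules, lost 214 CPM, more than any other gene past the test (−0.30 ± 0.05, adjusted p = 0.000962). *CDK1* (−0.26), *UBE2C* (−0.23), *ECT2* (−0.25) and *CCNB1* (−0.16) were lower with adjusted p-values from 0.00290 to 0.0464. In S phase, *PRIM1* (−0.25), *TYMS* (−0.22) and *CDCA7* (−0.23) were lower with adjusted p-values from 0.00428 to 0.00872. Of 35 replication factors, 8 were lower and 0 higher, *GINS1*, *PRIM1*, *POLA2* and *RPA1* among them, with a median of −0.14. Not all proliferation genes moved this way, since *CCND1*, which encodes cyclin D1, was higher with 387, 355 and 349 CPM against 318, 292 and 298 CPM (0.26 ± 0.05, adjusted p = 0.00929). Of 85 genes of the cytosolic ribosome, 0 were higher and 0 lower in edgeR at the adjusted p, with a median of −0.0049. With 1 WT library left out, *CCNB1* lost its call in all 6 cases (adjusted p from 0.0509 to 0.255), *CCND1* without BMP-off replicate 2 or 3 or BMP-on replicate 1 (0.0560 to 0.0961), *RPA1* without BMP-off replicate 1 or 3 or BMP-on replicate 1 or 2 (0.0591 to 0.146), *PRIM1* without BMP-on replicate 1 or 3 (0.0749 and 0.0563), *POLA2* without BMP-on replicate 2 or 3 (0.0579 and 0.0596), *TYMS* without BMP-on replicate 2 (0.0579) and *CDK1* without BMP-on replicate 3 (0.0513). The counts of the lists fell too. Leaving out BMP-off replicate 1, 2 or 3 or BMP-on replicate 1, 2 or 3 left 4, 6, 7, 4, 3 and 3 S phase genes lower, and leaving out BMP-off replicate 1 or BMP-on replicate 1, 2 or 3 left 13, 12, 9 and 7 G2/M genes lower. With a replicate block, 7 S phase genes were lower. With the GC correction the counts were 19 and 37. In bulk RNA, fewer cells in a phase of the cycle and less RNA per cell cannot be told apart.

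**Figure D3:**
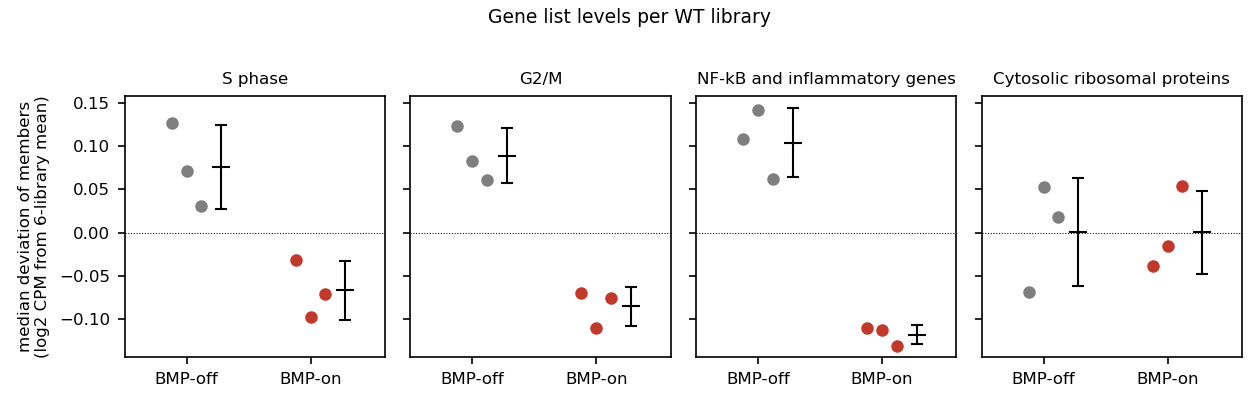
For 4 gene lists, the y axis gives the median over members of log2 CPM minus that gene's mean over the 6 WT libraries, with 1 point per library and the mean and SD of 3. All BMP-on libraries lie below all BMP-off libraries for S phase, G2/M and inflammatory genes, while the ribosomal protein genes overlap.

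Of the genes at least 2-fold lower, few were well expressed. *ANXA3*, an annexin, had 69.9, 73.3 and 69.2 CPM in BMP-off and 38.6, 32.7 and 33.9 CPM in BMP-on (log2 fold change −1.02 ± 0.07, adjusted p = 5.10e-07). *CRYBG2* had 23.8, 28.1 and 30.5 CPM against 11.9, 13.2 and 12.8 CPM (−1.12 ± 0.14, adjusted p = 0.000470). These were the only 2 of the 13 genes at least 2-fold lower that reached 20 CPM. *IL6* (−1.28, adjusted p = 2.25e-06) and *TMPRSS3* (−1.04, adjusted p = 0.000261) also had a mean of at least 50 counts, and 8 of the 13 had at most 2.65 CPM in any library. *KRT17*, a keratin of basal and stressed epithelia, lay just short of 2-fold, with 33.7, 42.7 and 47.9 CPM against 20.5, 21.7 and 20.8 CPM (−0.98 ± 0.13, adjusted p = 0.000890), and its reads may be shared with related keratin genes. *TM4SF1*, a tetraspanin-like surface protein gene, fell from 522 ± 21.8 to 369 ± 18.7 CPM (−0.50 ± 0.05, adjusted p = 3.01e-05), and *PHLDB2* from 552 ± 25.1 to 436 ± 13.0 CPM (−0.34 ± 0.04, adjusted p = 0.000211).

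Inflammatory genes had mostly negative changes, of which few passed the test. *IL6* had 13.1, 16.9 and 15.3 CPM in BMP-off and 5.82, 5.98 and 6.82 CPM in BMP-on (log2 fold change −1.28 ± 0.11, adjusted p = 2.25e-06). Of 22 NF-κB and inflammatory genes tested, 19 had a negative log2 fold change, 3 passed the test as lower and 0 as higher, with a list median of −0.35. Of all 17188 genes tested, 8501 had a negative value, 2.01% passed as lower and 1.91% as higher, and the median was 0.0016. *SAA1* (10.9 ± 0.607 to 6.82 ± 0.600 CPM, −0.67 ± 0.10, adjusted p = 0.000845), which encodes an acute phase protein and may share reads with the near-identical *SAA2*, and *NFKB2* (112 ± 8.41 to 84.4 ± 3.58 CPM, −0.41 ± 0.09, adjusted p = 0.0160) were the others. Without BMP-off replicate 2 or BMP-on replicate 1, the adjusted p of *NFKB2* was 0.0870 and 0.0560. The count was 9 with the GC correction, under which 845 of all genes were lower, 9 with a model of the WT libraries alone and 8 without a filter on low counts. The list median without BMP-off replicate 1 was −0.23.

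**Figure D4:**
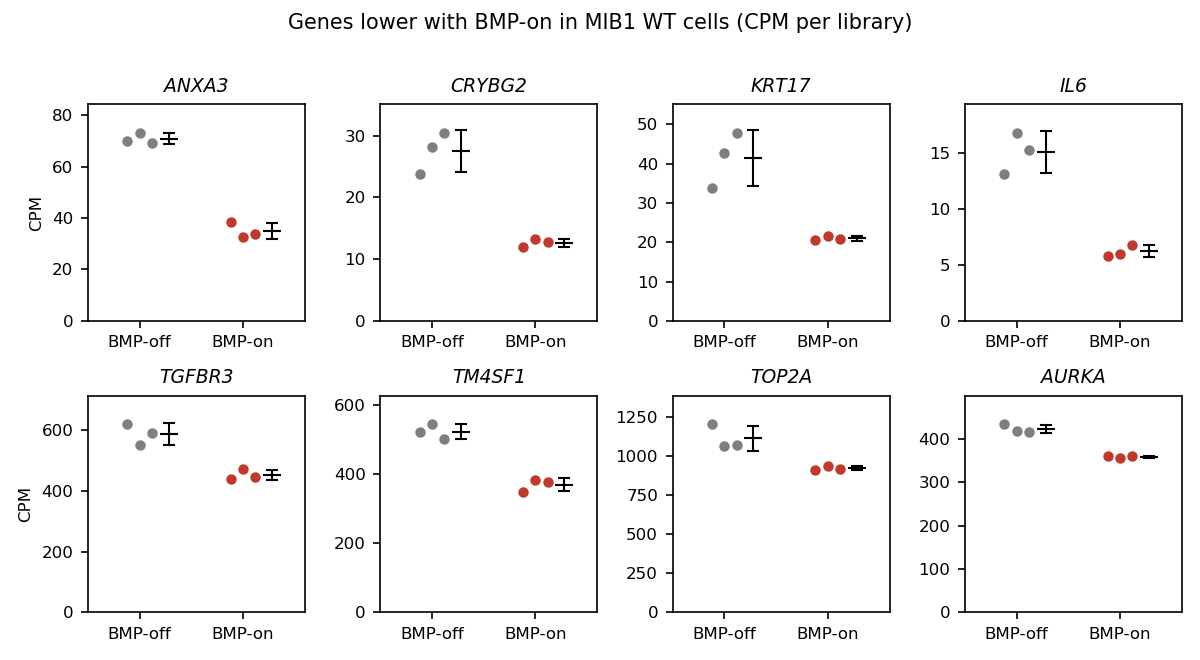
CPM (y axis, from 0) of 8 genes that were lower with BMP-on, with 1 point per library of MIB1 WT cells and the mean and SD of 3. The fall is about 2-fold for ANXA3, CRYBG2, KRT17 and IL6 and much smaller, though apart from BMP-off in every library, for TGFBR3, TM4SF1, TOP2A and AURKA.

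A minority of epithelial genes was lower and a minority of mesenchymal genes higher. Of 14 epithelial genes tested, *EPCAM* (9.27 ± 0.655 to 6.29 ± 0.477 CPM, log2 fold change −0.56 ± 0.11, adjusted p = 0.00794), *OCLN*, which encodes a tight junction protein (−0.31 ± 0.06, adjusted p = 0.00467), and *ELF3* at under 2 CPM (−1.64 ± 0.25, adjusted p = 0.000899) were lower, and 0 were higher. Of 13 mesenchymal genes, 4 were higher and 1 was lower. Of all genes tested, 1.91% were higher and 2.01% lower. The repressor *SNAI1* had 13.7, 13.8 and 16.2 CPM against 22.7, 22.5 and 21.8 CPM (0.62 ± 0.13, adjusted p = 0.0129). *FN1*, which encodes fibronectin, had 70.3, 54.8 and 62.0 CPM against 82.4, 94.8 and 81.1 CPM (0.46 ± 0.08, adjusted p = 0.00188). *LOX*, an enzyme that crosslinks collagen, rose from 3.87 ± 0.492 to 6.67 ± 1.05 CPM (0.77 ± 0.13, adjusted p = 0.00258), while *SNAI2*, named after its values were seen, passed narrowly at 0.136 to 1.16 CPM (1.36 ± 0.37, adjusted p = 0.0483) and *S100A4* fell (−0.33 ± 0.07, adjusted p = 0.0118). Without BMP-off replicate 1 or 3 or BMP-on replicate 1 or 2, the adjusted p of *SNAI2* was between 0.123 and 0.169, and without BMP-off replicate 2 that of *SNAI1* was 0.0763. The adjusted p of *EPCAM* was 0.0519 without BMP-on replicate 1, and that of *S100A4* 0.0609 and 0.0765 without BMP-off replicate 2 or BMP-on replicate 1. The list medians were −0.14 and 0.06. The summed fibroblast and smooth muscle markers given above were higher in every BMP-on library as well, through *COL1A1* (log2 fold change 0.73, adjusted p = 0.0728), while *DCN* and *FAP* stayed near 0, and their part in the mesenchymal values was not tested. Among markers of alveolar type 1 cells, *EMP2* (−0.44 ± 0.05, adjusted p = 8.60e-05), *CAV1* (−0.35 ± 0.04, adjusted p = 5.79e-05) and *RTKN2* (−0.52 ± 0.06, adjusted p = 0.000122) were lower and *GPRC5A* was higher (285 ± 10.6 to 429 ± 41.5 CPM, 0.59 ± 0.09, adjusted p = 0.00290), of 6 tested. The keratin gene *KRT7* was higher (0.55 ± 0.09, adjusted p = 0.00331), and, of 3 airway secretory genes tested, *SLPI* (−0.29 ± 0.05, adjusted p = 0.00341) and *MUC1* (−0.29 ± 0.08, adjusted p = 0.0449) were lower, the latter with adjusted p-values from 0.0526 to 0.190 when any WT library other than BMP-on replicate 2 was left out. The other airway secretory gene had a log2 fold change of 0.75 and did not pass. *ERBB3*, a receptor of neuregulins, fell from 18.1 ± 1.68 to 11.6 ± 1.69 CPM (−0.63 ± 0.13, adjusted p = 0.00872), and *ITGB8*, the integrin chain that activates latent TGF-β, fell from 12.6 ± 1.19 to 8.28 ± 1.45 CPM (−0.60 ± 0.11, adjusted p = 0.00483).

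**Figure D5:**
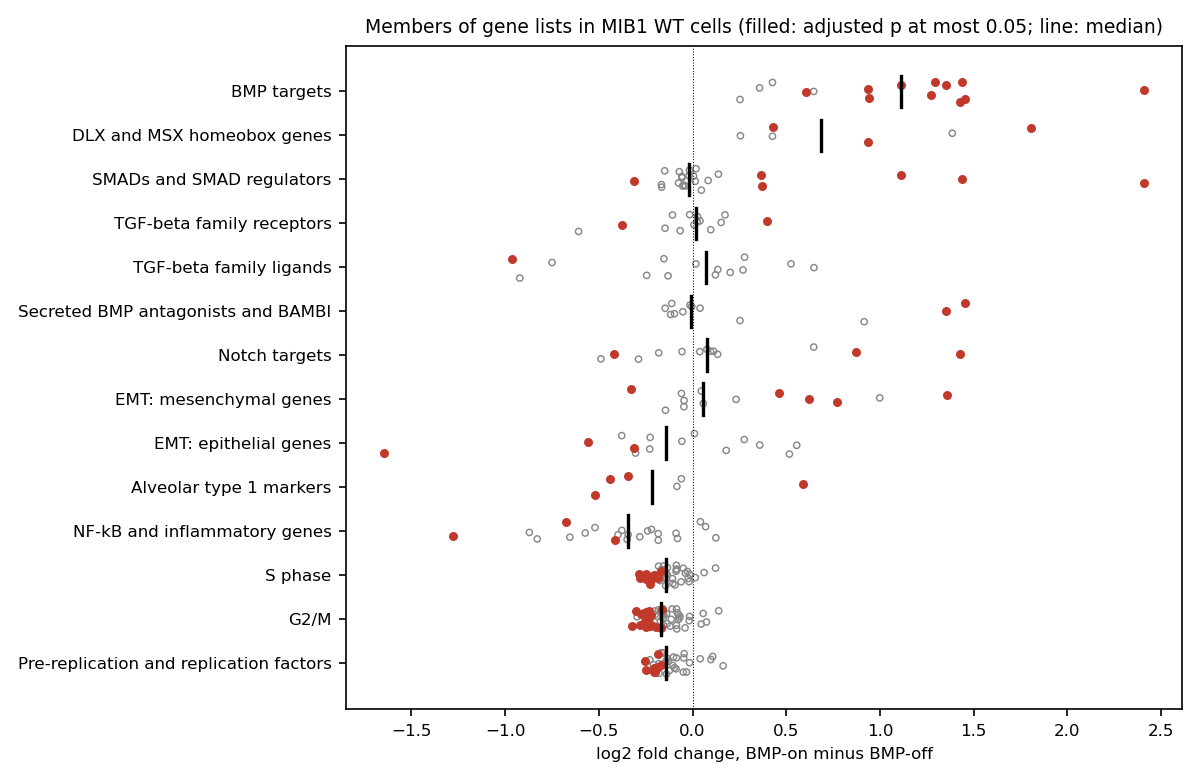
Each point is the log2 fold change (x axis, BMP-on minus BMP-off) of 1 tested member of the gene list named on the y axis, filled where the adjusted p was at most 0.05, and the black line marks the list median. BMP targets lie to the right with a median of 1.11, inflammatory genes to the left at −0.35, and the cell cycle lists in a narrow band left of 0.

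Genes with large gains in level were not those with large folds. The 5 largest gains among genes past the adjusted p were those of *HEG1*, *GPRC5A*, *ID3*, *AP2M1* and *RHOBTB3*. *HEG1*, an endothelial and epithelial surface mucin gene, had 565, 447 and 490 CPM against 737, 738 and 660 CPM (log2 fold change 0.51 ± 0.08, adjusted p = 0.00174). *RHOBTB3* had 380, 341 and 358 CPM against 486, 479 and 458 CPM (0.40 ± 0.05, adjusted p = 9.25e-05), and *AP2M1*, an adaptor of clathrin coats, 930, 916 and 938 CPM against 1040, 1065 and 1044 CPM (0.18 ± 0.05, adjusted p = 0.0420). The call of *AP2M1* was lost without any 1 of the WT libraries (adjusted p from 0.0620 to 0.169). Metabolic lists held few changes, beside 1.91% of all genes higher and 2.01% lower. Among 24 cholesterol synthesis genes 1 was lower (*FDPS*, with an adjusted p of 0.00799, and of 0.0516 and 0.0722 without BMP-off replicate 2 or BMP-on replicate 1), among 12 fatty acid synthesis genes 0 passed, and among 28 glycolysis and hypoxia genes *PFKFB3* was higher (0.51 ± 0.06, adjusted p = 0.000122) and the glucose transporters *SLC2A1* (−0.28 ± 0.06, adjusted p = 0.00790) and *SLC2A3* (−0.30 ± 0.06, adjusted p = 0.00564) were lower. Among 28 ATF4 and amino acid stress genes *NUPR1* alone passed (1.20 ± 0.21, adjusted p = 0.00270), at 0.614 ± 0.128 and 1.40 ± 0.0585 CPM. With the GC correction, 3 of these 28 were lower as well, and 1 cholesterol synthesis gene was higher and 3 were lower. Under that correction, 1 glycolysis and hypoxia gene was higher and 4 were lower, beside 673 and 845 of all genes tested.

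The 6 libraries of MIB1 KO cells, which share no library with those of WT cells and which all received Dox, gave a separate set of values for the same genes. All 60 genes at least 2-fold higher in WT cells had a positive log2 fold change in KO cells, and 12 of the 13 lower genes a negative one. The share of matching signs over all genes tested was not counted. *SMAD9* changed by 2.41 in WT and 2.19 in KO cells, *SMAD6* by 1.44 and 1.42, *GATA2* by 1.48 and 1.54, and *ID2* by 1.29 and 1.39. For none of these 4 genes did the difference pass the test of the interaction (adjusted p = 0.489, 0.971, 0.911 and 0.824). For *BAMBI*, *HEY1*, *CYP24A1* and *CDKN1A*, which were also among the 60, it did pass (adjusted p = 0.00263, 0.0112, 0.000130 and 0.00843). Their values and how they held under the alternatives are given below.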

How the data were processed

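RNA-seq was done on 12 libraries of MIB1-iKO cells in 4 groups of 3 replicates, of which the 6 libraries without Dox are described. Per the authors' methods, ribosomal reads were removed, the remaining single-end reads were aligned to GRCh38 with GSNAP, and reads on exons of RefSeq genes were counted. The submitters' processing notes also name limma. The deposited table holds raw counts for 58302 identifiers and was used for all tests, and the deposited RPKM values (scaled by the authors for gene length and depth) were used for levels between genes and as an alternative. These are Ensembl gene identifiers, whereas the authors' methods name RefSeq genes, so the annotation behind the counts is uncertain. All columns belonged to the 12 samples. Whether strand was used in counting is not given in the sources used here. Genes with near-identical copies (*KRT17*, *SAA1*, *CGB8* and its pseudogene neighbor) are uncertain because the counting could split their reads.

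Counts were normalized by TMM, filtered with filterByExpr at its defaults (17188 genes kept) and fitted in edgeR 4.0.16 (R 4.3.3) with the robust quasi-likelihood test, with all 12 libraries in 1 model of 4 groups. The contrast was BMP-on minus BMP-off in WT cells, adjusted by the Benjamini-Hochberg method over all genes tested. A gene passed where its adjusted p did not exceed 0.05, and a stricter set also needed a log2 fold change of 1 or more in either direction. CPM values are TMM-scaled. Errors are the SE of the log2 fold change or the SD of 3 libraries. The interaction term compared the responses of KO and WT cells. On simulated counts for this comparison (17008 genes), 99.5% of 200 changed genes were recovered, 100% of those changed by 4-fold and 99% of those changed by 2-fold, and 7 unchanged genes passed. The changed genes were drawn from those with a mean of at least 50 counts, and no GC trend was simulated. Recovery of weaker genes and of changes under 2-fold was therefore not tested. In the WT libraries, 28 of the 60 higher and 5 of the 13 lower genes had a mean of at least 50 counts.

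The gene lists and the comparison were chosen with earlier results of these data known, so no set test was run and counts are read beside those of all genes. Genes were named by a rule. It took the 20 largest rises and 10 largest falls past both thresholds at a mean of at least 50 counts, all tested BMP targets, receptors, SMAD genes, antagonists and CDK inhibitors, up to 4 members of each other list, the 5 largest gains and losses in CPM, and *MIB1*. Some genes that the rule took are not reported here. For any other gene the text says that its values were known when it was named. Alternatives were DESeq2 1.42.0, limma 3.58.1 with voom and quantile normalization, library size and upper quartile scaling, WT libraries alone, a filter of 10 counts in every library or none, a loess correction for GC content with a span of 0.4, log2(RPKM + 1) and log2(RPKM + 0.1), a block for the replicate number, and leaving out each library. Same-numbered WT libraries deviated together by correlations of 0.107, -0.0510 and 0.0370, so the numbers were not taken as pairs. Promoter windows came from RefSeq (GRCh38.p14), which matched 11133 of the genes tested.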

Additional observations from a re-analysis of the deposited data

Results flagged for a closer look

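For 6 of the named genes, the response to BMP-on differed between MIB1 KO and MIB1 WT cells by the interaction term of edgeR's quasi-likelihood test, with all p-values adjusted over all genes tested. All KO libraries received Dox and no WT library did, so loss of MIB1 and Dox cannot be told apart in these values.

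The log2 response of *BAMBI* was larger in KO cells by 0.961 (adjusted p = 0.00263), with values between 0.891 and 1.06 under 23 alternatives, all past the threshold. That of *CYP24A1* was larger by 0.765 (adjusted p = 0.000130) and that of *SOCS2* by 0.878 (adjusted p = 7.20e-05), again past the threshold under all 23 alternatives. *CDKN1A* responded more in KO cells by 0.752 (adjusted p = 0.00843), but 3 of 23 alternatives (both RPKM scales and the replicate block) did not pass, with adjusted p-values from 0.0509 to 0.0599. *HEY1* responded more by 0.883 (adjusted p = 0.0112), but 8 of 23 did not pass, with adjusted p-values from 0.0502 to 0.0753. These were the log2(RPKM + 0.1) scale, the replicate block, and the fits without WT BMP-off replicate 3, WT BMP-on replicate 2 or 3, KO BMP-off replicate 1, or KO BMP-on replicate 2 or 3. *TOP2A* fell further in KO cells, with a difference of -0.396 (adjusted p = 0.0484), and 16 of 23 alternatives did not pass, with adjusted p-values from 0.0556 to 0.248. Leaving out any 1 library lost this call, except WT BMP-off replicate 1 and KO BMP-off replicate 3.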

How the results depend on the processing

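Among 142 named genes under 12 other settings and with each of 6 WT libraries left out, 2331 values kept their direction and their side of the threshold, 193 kept the direction but no longer passed, 2 newly passed (*ACVR1* with the GC correction) and 2 changed sign (*MIB1*, at -0.0225 without BMP-off replicate 2 and -0.0205 without BMP-on replicate 2, in a range up to 0.13 over the left-out libraries, none past the test). BMP targets higher numbered 10 or 11 in all of these settings. With the GC correction, genes at least 2-fold lower numbered 23, higher and lower genes at the adjusted p alone 673 and 845, and lower G2/M, S phase and inflammatory genes 37, 19 and 9. Without a filter on low counts, 21 genes were at least 2-fold lower, 546 higher at the adjusted p alone and 8 inflammatory genes lower (list median -0.32). With at least 10 counts in every library, 8 genes were at least 2-fold lower and the inflammatory median was -0.28. With limma-voom, 21 genes were at least 2-fold lower. With log2(RPKM + 1), which understates changes of low genes, 15 genes were at least 2-fold higher and 1 lower, 188 were higher at the adjusted p alone, and the medians of BMP targets and inflammatory genes were 0.91 and -0.19. With log2(RPKM + 0.1), 194 were higher. WT libraries alone gave 510 higher genes and 9 lower inflammatory genes. The causes of these shifts were not tested.

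The replicate numbers were not taken as pairs, since 1 of 3 same-number correlations passed 0.1. The paper describes an equal split of the cells after 3 days, so same-numbered libraries may share a culture. Such weak correlations cannot settle whether they do. With a replicate block, 56 genes were at least 2-fold higher and 12 lower, 271 and 258 passed at the adjusted p alone, and 7 S phase genes were lower. The block with the GC correction gave 23 genes at least 2-fold lower, 630 higher and 770 lower genes at the adjusted p alone, and 36, 18 and 9 lower G2/M, S phase and inflammatory genes. Leaving out 1 WT library gave 201 to 344 higher and 165 to 233 lower genes at the adjusted p alone, 7 to 18 lower G2/M genes, 3 to 7 lower S phase genes and an inflammatory median between -0.35 and -0.23. Without BMP-off replicate 1, 59.6% of genes past the test were higher, against 48.7% with all libraries. Depth limits the genes under 5 CPM, which make up most of those changed by at least 2-fold.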

Other observations

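Some of the genes at least 2-fold changed lay close together. Of the 73 genes, 12 fell into 4 groups of neighbors at most 100000 bases apart (GRCh38). The largest, on chromosome 1 between 911435 and 982117, held 5 of the 7 genes tested there, namely ENSG00000230699, *LINC02593*, *SAMD11*, *PLEKHN1* and *PERM1*. The *SAMD11* gene, the most abundant of the 5, was described above, and *PLEKHN1* had 1.62, 2.17 and 2.59 CPM in BMP-off and 4.30, 4.10 and 4.67 CPM in BMP-on (log2 fold change 1.05 ± 0.18, adjusted p = 0.00258). The 2 other genes of the interval, *NOC2L* (0.23, adjusted p = 0.186) and *KLHL17* (0.37, adjusted p = 0.591), did not pass. With the GC correction, *NOC2L* passed (log2 fold change 0.19, adjusted p = 0.000945) and *KLHL17* did not (adjusted p = 0.415). Under that correction *PLEKHN1* and *PERM1* still passed, but at log2 fold changes of 0.92 and 0.98, below 2-fold. *PERM1* had an adjusted p of 0.0184 that became 0.0907, 0.0658 and 0.0886 without BMP-off replicate 2, BMP-on replicate 1 or BMP-on replicate 3. A second group, on chromosome 19 between 49047638 and 49072699, held *CGB8*, the pseudogene ENSG00000269706 and *KCNA7*, all higher. *CGB8* has near-identical paralogs nearby, so its counts are uncertain. The others were *DLX2* with its divergent transcript *DLX2-DT* (0.561 ± 0.210 to 1.64 ± 0.157 CPM, log2 fold change 1.54 ± 0.24, adjusted p = 0.00126) on chromosome 2 and *GATA2* with *GATA2-AS1* on chromosome 3. These genes were noticed after their values were seen, and no test of clustering was run.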
